A study of Homo sapiens with 12 samples.

Results

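A Caco-2 line that carried an added wild-type TLR4 gene was compared with Caco-2 cells that carried none, across all probe sets of a whole-transcript Affymetrix array. Caco-2 is an established line from a human colon carcinoma that takes on features of small intestinal enterocytes in culture. The comparison used 6 of the series' 12 arrays, 3 titled as the TLR4-WT line and 3 titled as untransfected, chosen by those titles alone. The TLR4-WT cells were given a plasmid for TLR4 with an HA tag (1 µg per well), and stable clones were selected with blasticidin at 1 µg/ml; one label field calls the plasmid TLR4-FL. The control cells received no exogenous DNA, and no line with an empty plasmid was among the samples. Both groups were grown for 8 days before total RNA was taken, with 1 array per RNA sample. The remaining 6 arrays came from lines that carry TLR4-D299G or TLR4-T399I from the same construct, and they were used for the spread between arrays and for values set beside those of the wild-type line. The labels speak of selected clones and of independently analysed RNA samples. They do not say whether a line is 1 clone or a pool, nor whether its 3 RNA samples came from separate cultures. The p-values therefore rest on how much these RNA samples differed from each other, which may be a technical spread alone. A property of the selected clone or clones cannot be told apart from an effect of the added receptor.

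TLR4 is the cell surface receptor for lipopolysaccharide of Gram-negative bacteria. It binds its ligand together with MD-2 (gene LY96), is loaded by CD14, and signals through the adaptors MyD88 and TRIF to NF-kB, MAP kinases and interferon regulatory factors. Resting intestinal epithelium carries little TLR4 and MD-2, which is held to limit its response to gut bacteria. No ligand was added according to the labels.

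Levels are log2 values of robust multi-array averaging (RMA), so a difference of 1 is a doubling. A gene was read from its brightest probe set, which gave 18417 genes. It was called when its adjusted p from limma (Benjamini-Hochberg over all 33297 probe sets) was under 0.05, and every adjusted p below is of that kind, with n = 3 arrays per group. The lower quartile of the 12 arrays lay between 5.20 and 5.29 and their median between 6.88 and 6.97. A level below the lower quartile is near the floor of the array, so a difference that starts or ends there is a lower bound.

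The added receptor was visible in every array of its line. TLR4 stood at 8.62, 8.71 and 8.49 in the TLR4-WT arrays and at 4.78, 5.12 and 4.59 in the untransfected arrays. The groups were far apart, and all 3 untransfected arrays were below the lower quartile. The difference was 3.78 (SE 0.12, adjusted p = 1.68e-08), at least 13.7-fold. The partners did not follow. LY96 was at 3.40, 3.42 and 3.55 in the TLR4-WT arrays and at 3.47, 3.94 and 3.67 in the untransfected arrays, all below the lower quartile (adjusted p = 0.166). CD14 was at 7.62, 7.64 and 7.81 against 7.76, 7.78 and 7.65, with overlapping groups (adjusted p = 0.796). MYD88 fell by 0.28 (SE 0.06, adjusted p = 0.00623), from 8.49, 8.65 and 8.55 in untransfected cells to 8.25, 8.31 and 8.29. TIRAP, the adaptor that brings MyD88 to the receptor, had a difference of -0.33 and SARM1, an inhibitory adaptor, one of 0.27. TIRAP lost its call when only the 6 compared arrays were fitted (adjusted p = 0.0723), without TLR4-WT replicate 2 (adjusted p = 0.0812), without TLR4-WT replicate 3 (0.0750), without untransfected replicate 1 (0.0907) and without untransfected replicate 2 (0.0770). SARM1 lost its call when only the 6 compared arrays were fitted (adjusted p = 0.0605), without TLR4-WT replicate 3 (adjusted p = 0.0778), without untransfected replicate 3 (0.0574) and when each array was centred on its median (0.0663).

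Both groups held the epithelial markers. The mean level of 13 measured markers of intestinal epithelium, among them EPCAM, KRT8, CDH17 and CDX2, lay between 10.7 and 10.8 in the TLR4-WT arrays and between 10.5 and 10.6 in the untransfected arrays, and none was below the lower quartile. The mean of 12 leukocyte markers lay between 6.41 and 6.52 in the TLR4-WT arrays and between 6.43 and 6.55 in the untransfected arrays, and 2 of them, the defining PTPRC included, were below the lower quartile in all arrays of each group. The mean of 12 fibroblast markers lay between 5.90 and 6.0 and between 5.85 and 5.86, and 5 of them in the TLR4-WT arrays and 3 in the untransfected arrays were below the lower quartile throughout. Of the leukocyte markers 2 were called higher and 3 lower, and of the fibroblast markers 2 higher and none lower. Array values correlated at 0.9942 to 0.9957 within the TLR4-WT line and at 0.9902 to 0.9936 within untransfected cells. Between these groups they correlated at 0.9783 to 0.9855, and between the TLR4-WT line and the mutant lines at 0.9872 to 0.9925.

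Much of the transcriptome differed between the 2 groups, in both directions. Of 33297 probe sets, 5370 were higher in the TLR4-WT line (16.1%) and 5034 were lower (15.1%). When each array was centred on its median instead, 3690 were higher and 5656 lower, so the balance of rises and falls depends on the scaling. It also turned when only the 6 compared arrays were fitted, with 4220 higher and 4281 lower. Of the 18417 genes, 3553 were higher (19.3%) and 3507 lower (19.0%), and the median difference over all genes was 0.063. Changes of 2-fold or more were mostly falls: 103 genes rose that far (0.559%) and 368 fell that far (2.0%). The 3 and 3 arrays did not overlap for 9542 genes (51.8%). With the genes split by brightness into 4 classes of about equal size, the median difference was 0.17 in the second dimmest class and -0.05 in the brightest, and the part of brightness in the small differences was not tested. Counts for gene lists below are to be read against these shares.

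**Figure D1:**
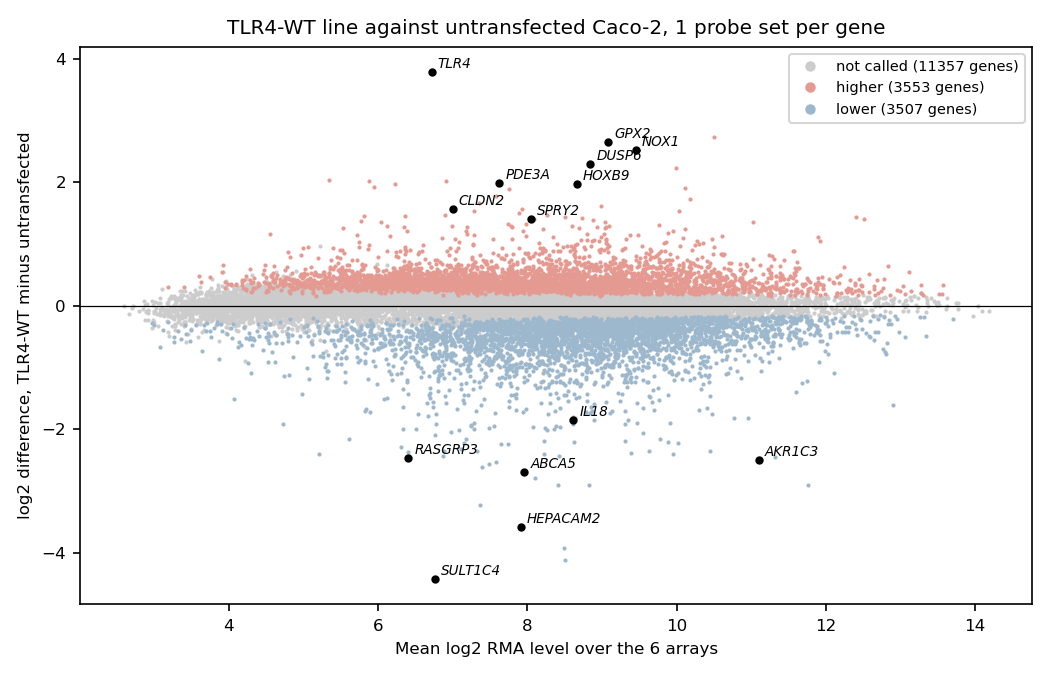
Each point is a gene, placed by its mean log2 RMA level over the 6 arrays (horizontal) and by the log2 difference between the TLR4-WT line and untransfected cells (vertical). Red and blue points were called higher (3553) and lower (3507), grey points were not called, and TLR4 stands highest at 3.78.

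Among 18 measured NF-kB targets, genes that lipopolysaccharide signalling is known to raise, 6 were higher and 2 lower, with a median difference of 0.15. Besides the chemokines CCL20 and CXCL1, those higher were CXCL3 (0.46), the adhesion molecule ICAM1 (0.39), the siderophore-binding LCN2 (0.33) and PTGS2 (0.42); CXCL3 lost its call in 5 settings, among them without untransfected replicate 2 (adjusted p = 0.0575). CCL20, the chemokine that draws CCR6-bearing dendritic and T cells to the epithelium, was at 7.13, 6.88 and 7.10 in the TLR4-WT arrays and at 6.27, 6.03 and 6.14 in untransfected arrays. The groups were separate, with a difference of 0.89 (SE 0.12, adjusted p = 0.000215). CXCL1, a neutrophil chemokine, was at 8.19, 8.03 and 8.14 against 7.27, 7.27 and 7.35, a difference of 0.82 (SE 0.11, adjusted p = 0.000208), again without overlap. CXCL8, the best known neutrophil chemokine of this pathway, was at 6.11, 6.11 and 5.96 against 6.11, 5.64 and 6.19 and was not called (difference 0.08, adjusted p = 0.695). SOD2, the mitochondrial superoxide dismutase, fell by 0.58 from 10.34, 10.56 and 10.58 to 9.89, 9.93 and 9.92 (SE 0.07, adjusted p = 0.000119). The other lower target was IL1B, with a difference of -0.50. Genes for NF-kB inhibitors, 3 of them lower, were not counted among these targets.

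Of 6 measured NF-kB inhibitors 3 were lower and 1 was higher. TNFAIP3, which encodes the ubiquitin-editing enzyme A20, fell by 0.51 (SE 0.13, adjusted p = 0.0118) and NFKBIZ, a nuclear IkB protein, fell by 0.55 (SE 0.10, adjusted p = 0.00137). NFKBIA was lower too, with a difference of -0.20, and lost its call in 8 settings. Of 13 kinases and ligases of Toll-like receptor signalling 2 were higher and 4 lower, and of 8 inhibitors 2 were higher and 4 lower. CYLD, a deubiquitinase that restrains NF-kB, fell by 0.63 and TRAF6, the ligase downstream of MyD88, fell by 0.38. TLR2, the receptor for bacterial lipoproteins, was at 7.38, 6.94 and 7.11 against 7.57, 7.83 and 7.70 in untransfected cells. It fell by 0.56 (SE 0.11, adjusted p = 0.00282), and the groups did not overlap. Of the 11 Toll-like and NOD receptors measured beside TLR4, 6 were called higher, by 0.40 at most, and 1 was called higher after centring of the arrays.

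Genes that ERK MAP kinase signalling switches on to limit itself were higher in the TLR4-WT line. Of 12 measured feedback genes 9 were higher and none lower, with a median difference of 0.54; of 18 output genes 8 were higher and 2 lower. After centring, 15 of the 30 genes of the whole list were higher, where 17 had been. DUSP6, the phosphatase that inactivates ERK, was at 9.98, 9.89 and 10.08 in the TLR4-WT arrays and at 7.68, 7.87 and 7.54 in untransfected arrays. This 4.88-fold difference (log2 2.29, SE 0.09, adjusted p = 5.91e-08) was several times the spread of either group. The Sprouty proteins, which block receptor tyrosine kinase signals upstream of ERK, rose together. SPRY2 was at 8.69, 8.81 and 8.74 against 7.32, 7.39 and 7.32, a difference of 1.40 (SE 0.07, adjusted p = 2.71e-07). SPRY4 was at 7.76, 7.91 and 7.82 against 6.63, 6.52 and 6.54, a difference of 1.27 (SE 0.08, adjusted p = 9.47e-07). SPRY1 rose by 1.11 (SE 0.08, adjusted p = 2.83e-06). None of these groups overlapped.

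Output genes that report ERK activity were higher in larger number than lower. ETV4, an ETS factor, was at 10.07, 10.03 and 10.07 against 8.95, 8.92 and 8.87, a difference of 1.14 (SE 0.07, adjusted p = 9.03e-07). Its relative ETV5 rose by 0.66 (SE 0.11, adjusted p = 0.00119), and PHLDA1, another ERK-induced gene, by 0.59 (SE 0.07, adjusted p = 0.000106). The 2 lower output genes were KLF6, which fell by 0.29, and the immediate early factor EGR1. EGR1 fell by 0.37 from 8.08, 8.01 and 7.94 to 7.61, 7.74 and 7.56 (SE 0.07, adjusted p = 0.00243). The EGF receptor fell by 0.53 and ERRFI1, its feedback inhibitor, fell by 0.84. RASGRP3, an exchange factor that loads Ras with GTP, was at 5.06, 5.26 and 5.20 in the TLR4-WT arrays, below the lower quartile, and at 7.63, 7.75 and 7.53 in untransfected arrays. That is a fall of at least 5.52-fold (adjusted p = 1.34e-07).

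**Figure D2:**
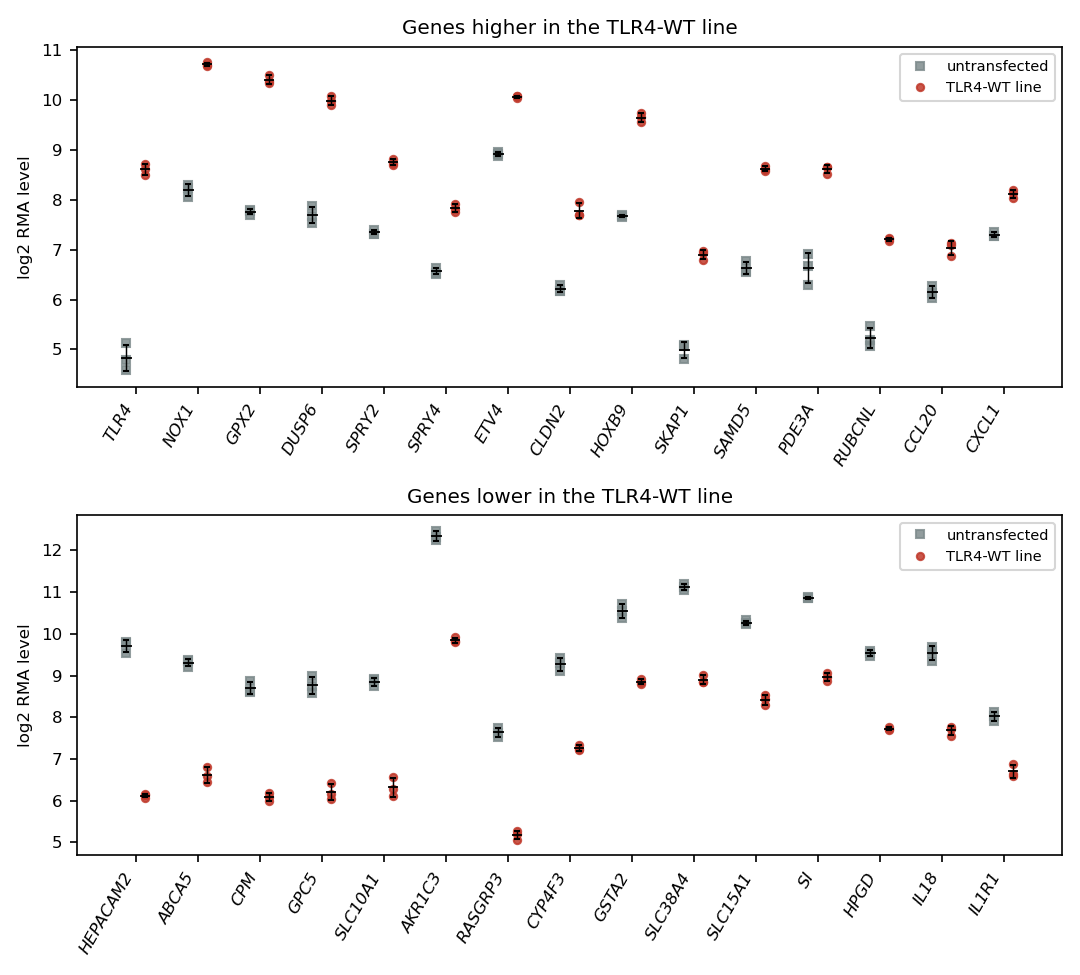
Log2 RMA levels (vertical) of 15 genes that were higher and 15 that were lower in the TLR4-WT line; each symbol is an array (circles TLR4-WT, squares untransfected), and the black bars give the mean and SD of 3 arrays. In no gene shown do the 2 groups overlap; DUSP6, for example, lay between 9.89 and 10.08 in the TLR4-WT arrays and between 7.54 and 7.87 in the untransfected arrays.

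An oxidant enzyme and an enzyme that removes peroxides stood among the 5 named genes with the largest rises. NOX1, the superoxide-generating NADPH oxidase of colon epithelium, was at 10.70, 10.68 and 10.75 in the TLR4-WT arrays and at 8.23, 8.30 and 8.05 in untransfected arrays. The groups were separate by 5.72-fold (log2 2.52, SE 0.08, adjusted p = 1.68e-08). GPX2, the gastrointestinal glutathione peroxidase, was at 10.33, 10.37 and 10.50 against 7.80, 7.77 and 7.70, a 6.25-fold difference (log2 2.64, SE 0.09, adjusted p = 2.39e-08). No other oxidase gene of the 9 measured was called. DUOX2, the dual oxidase of the gut surface, was at 5.89, 5.58 and 5.99 against 6.17, 5.94 and 6.0, and CYBA, the shared p22phox subunit, had a difference of -0.18 (adjusted p = 0.0657). Of 17 antioxidant genes, GPX2 included, 5 were higher and 6 lower. Catalase (CAT) fell by 1.05 from 11.43, 11.30 and 11.27 to 10.31, 10.26 and 10.27 (SE 0.07, adjusted p = 2.09e-06). GPX3, the secreted peroxidase, fell by 0.95 (SE 0.07, adjusted p = 4.98e-06).

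Genes of the crypt base were higher in larger number than lower. Of 18 measured Wnt targets and transcription factors of the stem cell programme 12 were higher and 3 lower, with a median difference of 0.49, the highest of the list's 3 roles. The 3 lower were LEF1, PROM1 and CTNNB1, while OLFM4, EPHB3 and TNFRSF19 were not called. Of 12 receptors and ligands 6 were higher and 1 lower, and of 9 Wnt inhibitors 1 was higher and 3 lower. FZD7, a Wnt receptor of intestinal stem cells, was at 9.78, 9.79 and 9.66 against 8.74, 8.89 and 8.83 in untransfected cells, a difference of 0.92 (SE 0.06, adjusted p = 1.97e-06). ASCL2, the stem cell transcription factor, was at 8.49, 8.50 and 8.55 against 7.73, 7.72 and 7.97, a difference of 0.71 (SE 0.08, adjusted p = 6.38e-05). SOX9, a factor of crypt progenitors, rose by 0.62 (SE 0.06, adjusted p = 3.12e-05). AXIN2, a feedback target used as a readout of beta-catenin, did not pass: 8.02, 7.99 and 8.07 against 7.94, 7.91 and 7.96 (difference 0.09, adjusted p = 0.408). The groups of FZD7, ASCL2 and SOX9 were separate. Those of AXIN2 were separate too, by less than 0.1.

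Notch genes, secretory fate genes and lineage factors were higher in larger number than lower. Of 18 Notch and secretory fate genes 8 were higher and 1 lower, and 5 were higher after centring. JAG1, a Notch ligand, was at 9.86, 9.89 and 9.84 against 8.77, 8.83 and 8.75, a difference of 1.08 (SE 0.06, adjusted p = 3.35e-07). HES1, the Notch target that holds progenitors in an absorptive fate, rose by 0.46 (SE 0.06, adjusted p = 0.000206), while the receptor NOTCH2 fell by 0.80 (SE 0.09, adjusted p = 5.58e-05). ATOH1, a factor of the opposite, secretory fate, rose by 0.56, and the secretory factors GFI1 and SPDEF were called higher too. CDX2, the master factor of intestinal identity, ranged from 9.99 to 10.10 in the TLR4-WT arrays and from 9.92 to 10.05 in the untransfected arrays and was not called (adjusted p = 0.582). Of 15 intestinal lineage factors 8 were higher and 2 lower. GATA6 rose by 0.66, KLF5, a factor of crypt cells, by 0.56 and ISX, an intestinal homeobox factor, by 0.49; HNF4G and KLF4, factors of differentiated enterocytes, fell by 0.85 and fell by 0.58. CLDN2, the pore-forming claudin of crypt and leaky epithelium, was at 7.96, 7.70 and 7.69 against 6.30, 6.18 and 6.17, without overlap. Its difference of 1.57 (SE 0.09, adjusted p = 5.76e-07) stood alone in size among 18 claudins, of which 2 were higher and 5 lower. CLDN1, a sealing claudin, fell by 0.45 (SE 0.06, adjusted p = 0.000278).

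The HOXB genes, which set position along the body axis and lie side by side on chromosome 17, were higher as a block. Of 10 measured 7 were called higher and none lower; the count was 6 after centring, and after quantile normalisation 6 were higher and 1 was lower. HOXB9 was at 9.73, 9.65 and 9.55 in the TLR4-WT arrays and at 7.68, 7.69 and 7.66 in untransfected arrays. This difference of 1.97 (SE 0.07, adjusted p = 3.55e-08) was the largest of the cluster. HOXB6 was at 6.91, 6.80 and 6.76 against 5.46, 6.10 and 6.16 (difference 0.92, SE 0.16), and HOXB7 at 9.30, 9.34 and 9.35 against 8.62, 8.62 and 8.65 (difference 0.70, SE 0.05). The 3 genes were each separate between the groups. HOXB5 had a difference of 0.17 (not called), and HOXB13, which lies apart from the rest of the cluster, had one of -0.20 (not called).

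The neighbours at both ends of the block were unlike. SKAP1, the adaptor of T cell receptor signalling that stands next to HOXB1 in the RefSeq order, was at 6.97, 6.79 and 6.94 against 4.81, 5.09 and 5.06, a difference of at least 1.91, since the untransfected arrays were below the lower quartile. SNX11, the gene after SKAP1, differed by 0.04 and CALCOCO2, beyond HOXB13, fell by 0.25. MIR196A1, a microRNA gene beside HOXB9, was picked after its values were seen. Its probe set, which reads the precursor and not the mature RNA, was at 8.15, 8.06 and 7.92 against 6.51, 6.44 and 6.6, a difference of 1.53 (SE 0.10). The mature product, from RefSeq (GRCh38.p14, chr17:48632532-48632553, minus strand), is known to bind HOXB8 mRNA; capitals mark its seed.
hsa-miR-196a-5p: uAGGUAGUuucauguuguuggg
HOXB8 itself was not lower: it stood at 6.90, 6.6 and 7.04 against 6.27, 6.03 and 6.23, a difference of 0.67. Against the TLR4-D299G line the HOXB9 difference of the TLR4-WT line was 1.59 and against the TLR4-T399I line it was -0.90. HOXB9 was thus not at 1 level in the 3 TLR4 lines. MEIS2, a HOX cofactor gene on another chromosome, fell by 0.61.

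**Figure D3:**
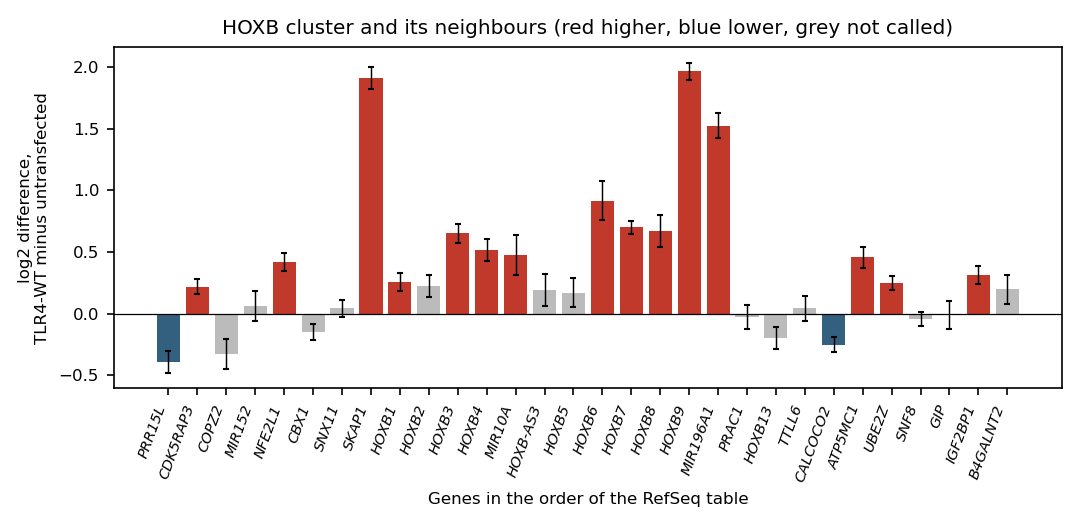
Log2 difference between the TLR4-WT line and untransfected cells (vertical, bars with their SE) for the genes of the HOXB cluster and 8 neighbours on each side, in the order of the RefSeq table. Red bars were called higher, blue lower and grey bars were not called; SKAP1 (1.91), HOXB9 (1.97) and MIR196A1 (1.53) stand above the rest.

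Digestive and absorptive genes of the mature enterocyte were lower in part. Of 30 measured brush border genes 11 were lower and 1 higher. SI, sucrase-isomaltase, was at 9.07, 8.96 and 8.87 in the TLR4-WT arrays and at 10.89, 10.85 and 10.85 in untransfected arrays, a 3.72-fold fall (SE 0.10 on the log2 scale, adjusted p = 4.22e-07). The aminopeptidase ANPEP fell by 0.56 and CDHR5, an adhesion protein between microvilli, fell by 0.81. DPP4, a dipeptidase of the same membrane, rose by 0.25 and was the 1 gene of the list that was higher. ALPI, intestinal alkaline phosphatase, was not called (7.19, 7.02 and 7.47 against 7.30, 7.41 and 7.18).

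Nutrient transporters changed in both directions, 16 of 43 higher and 13 lower, but the changes past 2-fold were mostly falls, 7 against 2. SLC15A1, the peptide transporter PEPT1, was at 8.53, 8.44 and 8.29 against 10.32, 10.25 and 10.23, a 3.6-fold fall (adjusted p = 7.21e-08). SLC38A4, a transporter of neutral amino acids, was at 9.02, 8.85 and 8.84 against 11.20, 11.12 and 11.06, a 4.67-fold fall (adjusted p = 4.9e-08). SLC38A3, a glutamine transporter, fell by 2.19 and SLC1A1, the glutamate transporter of epithelia, fell by 1.56. In all 4 the groups were separate. SLC19A1, the reduced folate carrier, rose by 1.06 (SE 0.06, adjusted p = 4.99e-07). Of 14 iron genes 6 were higher and 6 lower, and 2 were higher after centring. The largest change among them was a rise, that of CP (ceruloplasmin), by 2.02. The iron exporter SLC40A1 (ferroportin) fell by 1.40 and CYBRD1, the surface ferric reductase, fell by 1.49.

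Genes of fatty acid handling changed in both directions. Of 22 uptake, binding and storage genes 5 were higher and 7 lower, and of 9 oxidation and ketogenesis genes 4 were lower and none higher. ACSL1, which activates long-chain fatty acids, was at 7.17, 7.32 and 7.15 against 9.71, 9.67 and 9.57, a 5.41-fold fall (SE 0.12, adjusted p = 2.74e-07). CD36, a fatty acid receptor, was at 3.91, 3.69 and 3.73, below the lower quartile, against 5.84, 5.81 and 5.42, a fall of at least 3.77-fold. The uptake transporter SLC27A4 rose by 0.40 and the lipid droplet protein PLIN2 by 0.66. Of 9 apolipoproteins 5 were lower and 1 higher: APOC3, an inhibitor of lipoprotein lipase, fell by 1.17 and APOB, the scaffold of chylomicrons, fell by 0.57, while APOM, a carrier of sphingosine phosphate, rose by 1.09. Of 14 genes of lipoprotein assembly, receptors and efflux 2 were higher and 3 lower. MTTP, which loads lipid onto apolipoprotein B, was at 11.08, 11.01 and 11.02 against 9.38, 9.37 and 9.20, a 3.29-fold rise (log2 1.72, SE 0.07, adjusted p = 6.37e-08). PPARG, the fatty acid sensing nuclear receptor, rose by 1.28 (SE 0.07, adjusted p = 5.3e-07), from 8.39, 8.34 and 8.17 to 9.55, 9.64 and 9.55.

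Enzymes that modify drugs, steroids and bile acids were lower in larger number. Of 29 measured conjugating enzymes 16 were lower and 2 higher, and of 7 glucuronosyltransferases and relatives (UGT genes) 6 were lower. UGT8, which transfers galactose and not glucuronic acid, is 1 of the 6. UGT2A3 was at 9.81, 9.87 and 9.75 against 10.81, 10.82 and 10.82 (difference -1.01, SE 0.08). UGT2B10 and UGT2B4 fell by 1.16 and fell by 1.09, with separate groups. The glutathione transferase GSTA2 was at 8.85, 8.91 and 8.79 against 10.37, 10.54 and 10.72, a 3.23-fold fall (adjusted p = 9.88e-06), and GSTA1 fell by 1.33. The genes of each of these families resemble one another closely, so their probe sets may share signal.

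The aldo-keto reductases of the AKR1C cluster, which reduce ketosteroids and carbonyls, fell together, with the same limit on near-identical members. AKR1C3 was at 9.82, 9.92 and 9.80 in the TLR4-WT arrays and at 12.25, 12.33 and 12.47 in untransfected arrays, a 5.67-fold fall (SE 0.09, adjusted p = 3.57e-08). AKR1C2 and AKR1C1 fell by 1.91 and fell by 1.82. In the list of the oxidant-sensing factor NRF2 that holds these genes, 3 of 18 measured members were higher and 10 lower. The list also holds NFE2L2, the gene for NRF2 itself, which was not called. KEAP1, the gene for the protein that restrains NRF2, is 1 of the 3 higher members. The textbook targets NQO1 and HMOX1 were among those higher, by 0.44 (SE 0.06, adjusted p = 0.000262) and 0.48 (SE 0.07, adjusted p = 0.000638).

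Cytochromes P450 and pumps were split. CYP4F3, which inactivates leukotriene B4, was at 7.34, 7.23 and 7.22 against 9.41, 9.11 and 9.29, a 4.02-fold fall (adjusted p = 8.37e-08), and CYP3A5 fell by 1.36. CYP2J2, an epoxygenase of arachidonic acid, was at 7.68, 7.61 and 7.60 against 6.15, 6.28 and 6.06, a rise of 1.47 (SE 0.12, adjusted p = 5.55e-06). The drug efflux pumps ABCB1 and ABCG2 were higher, by 1.16 (SE 0.08, adjusted p = 2.74e-06) and 1.28 (SE 0.12, adjusted p = 1.56e-05). ABCC3, the basolateral pump for glucuronides and bile salts, fell by 1.48 and ABCA5, an intracellular lipid transporter, was at 6.58, 6.81 and 6.45 against 9.37, 9.35 and 9.21, a 6.48-fold fall. SLC10A1, the sodium-bile acid cotransporter known from hepatocytes, was at 6.28, 6.12 and 6.57 against 8.89, 8.91 and 8.74, a 5.75-fold fall (adjusted p = 9.01e-08). The groups were separate in each.

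Genes for liver-type plasma proteins, which Caco-2 is known to express, were lower in larger number than higher in the 4 classes described here. Of 26 acute-phase and transport proteins 15 were lower and 2 higher, with a median difference of -0.44; of 22 protease inhibitors 11 were lower and 3 higher (median -0.43). SERPINF1, an antiangiogenic serpin, was at 8.77, 8.76 and 8.74 against 11.13, 11.23 and 11.10, a 5.27-fold fall (adjusted p = 1.97e-08). KNG1, kininogen, was at 8.81, 8.77 and 8.77 against 11.07, 10.89 and 10.99, a 4.6-fold fall (adjusted p = 4.92e-08). SERPINA7 and SERPINA6, which carry thyroid hormone and cortisol, fell by 2.32 and fell by 1.92. SERPINA1, alpha-1 antitrypsin, fell by 0.42. Each of these genes had separate groups. The 2 higher acute-phase and transport proteins were CP, which rose by 2.02, and A1BG. The mean level of the 12 measured hepatocyte markers, which these lists in part share, lay between 7.61 and 7.72 in the TLR4-WT arrays and between 7.99 and 8.02 in the untransfected arrays. Of these markers 4 were higher and 2 lower, and 2 were below the lower quartile in all arrays of each group; their part in the result was not tested. In bulk RNA, fewer cells of a type and less RNA per cell cannot be told apart.

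In coagulation 8 of 22 genes were lower and 3 higher. Factor X (F10) was at 9.22, 9.05 and 9.23 against 10.61, 10.71 and 10.50, a 2.71-fold fall (adjusted p = 2.73e-07). The fibrinogen chain FGG fell by 1.25 (SE 0.13, adjusted p = 4.8e-05) and its partner FGB fell by 0.66 (SE 0.11, adjusted p = 0.00107). In complement 7 of 19 components were lower and 3 higher, and 6 of 7 regulators were lower. C2 was at 8.20, 8.13 and 8.27 against 10.69, 10.52 and 10.52, a 5.19-fold fall, and its 3 probe sets gave differences of -2.40 to -2.38. C5 fell by 2.05 (SE 0.15, adjusted p = 2.79e-06), C3 fell by 1.33 and SERPING1, the C1 inhibitor, fell by 1.92.

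Genes of cytokine receptors and their signalling were lower in larger number than higher. Of 25 such genes, which also include the cytokine IL18, 2 were higher and 9 lower. IL6R, the interleukin-6 receptor, was at 7.04, 6.97 and 6.82 against 7.90, 7.86 and 7.76 and fell by 0.90 (SE 0.08, adjusted p = 1.65e-05). IL1R1, the interleukin-1 receptor, was at 6.88, 6.59 and 6.64 against 8.02, 8.13 and 7.92 and fell by 1.32 (SE 0.12, adjusted p = 1.32e-05). Of 13 hepatic transcription factors 5 were higher and 2 lower. FOXA2, a pioneer factor of liver and gut, was at 9.11, 9.08 and 9.08 against 8.43, 8.39 and 8.55 and rose by 0.63 (SE 0.06, adjusted p = 2.58e-05), with separate groups. CEBPD, a factor of the acute-phase response, rose by 0.24 (SE 0.06, adjusted p = 0.0129), and CEBPA, a liver-enriched factor, was not called (difference -0.14, adjusted p = 0.135). The letters GTTAATNAT, those of a site for the hepatic factor HNF1, were found on either strand in the 250 bases before the gene start in 2 of the 19 acute-phase and transport genes with a RefSeq promoter, against 0.72% of 35116 promoters. The members that hold them are ALB and AFP, both lower here. Of the 19 genes, 13 were lower, so most lower members lack the letters. The stretch before ALB (GRCh38.p14, chr4:73404214-73404246, plus strand), the gene with one of the largest falls of the list, reads as follows, with the match in capitals.
ALB: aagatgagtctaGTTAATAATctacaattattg
A match describes letters only, and the binding of HNF1 was not measured.

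Interferon-stimulated genes were lower in larger number, and so were the parts that carry the interferon signal. Of 9 measured signalling genes 6 were lower and none higher (median difference -0.42); of 43 target genes 16 were lower and 8 higher (median -0.05). Over the whole list 8 were higher, and 5 after centring of the arrays, while 22 were lower, and 23 after centring. IFNAR2, a chain of the type I interferon receptor, was at 7.59, 7.90 and 7.78 against 8.56, 8.71 and 8.67 and fell by 0.89 (SE 0.11, adjusted p = 0.000166). IL10RB, which serves the receptor of interferon lambda, fell by 0.83, JAK1 fell by 0.65 and IRF9, the DNA-binding subunit of ISGF3, fell by 0.52. The groups were separate in all 4.

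The target genes did not share a direction. The 4 IFIT genes of the list, whose proteins bind viral RNA, were lower: IFIT1 fell by 2.0, IFIT3 fell by 1.10, IFIT5 fell by 0.84 and IFIT2 fell by 0.83, a lower bound since its TLR4-WT arrays were below the lower quartile. IFIT3 was at 6.26, 6.41 and 6.53 against 7.35, 7.71 and 7.43, with separate groups. PARP14, an interferon-induced ADP-ribosyltransferase, was at 8.61, 8.72 and 8.26 against 9.47, 9.65 and 9.43 and fell by 0.99 (SE 0.11, adjusted p = 9.1e-05). Its relative PARP12 was at 8.12, 7.99 and 8.02 against 7.38, 7.60 and 7.46 and rose by 0.56 (SE 0.08, adjusted p = 0.000306). BST2, which tethers budding viruses, rose by 1.61 (SE 0.09, adjusted p = 3.54e-07).

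Letters of an interferon response were searched in the promoters of the list. GAAANNGAA, or TTCNNTTTC on the other strand, is the core of the interferon-stimulated response element. It was present in the 250 bases before the start in 23 of the 42 list members with a RefSeq promoter (54.8%), against 6.88% of all 35116 promoters. Of the lower genes 9 of 18 held it, of the higher genes 5 of 8 and of those not called 9 of 16. The stretches below, from GRCh38.p14 in 5′ to 3′ direction of the gene, are shown because they come from 3 genes that fell and 2 that rose; capitals mark the matches, which may overlap.
IFIT1 (chr10:89392496-89392541, plus strand): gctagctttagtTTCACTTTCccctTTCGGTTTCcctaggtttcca
EPSTI1 (chr13:42992271-42992303, minus strand): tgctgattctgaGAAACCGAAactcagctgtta
PARP14 (chr3:122680798-122680830, plus strand): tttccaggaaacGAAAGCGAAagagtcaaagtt
BST2 (chr19:17405734-17405772, minus strand): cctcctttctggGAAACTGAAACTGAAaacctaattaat
PARP12 (chr7:140062952-140062972, minus strand): cccggggccgctTTCGGTTTC
IFIT1, EPSTI1 and PARP14 fell by 2.0, fell by 1.67 and fell by 0.99, while BST2 and PARP12 rose by 1.61 and 0.56. Genes with these letters were thus found among those that fell and those that rose.

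Secreted immune and antimicrobial genes changed in both directions. IL18, a cytokine that epithelium stores for release, was at 7.56, 7.77 and 7.72 against 9.35, 9.59 and 9.68, a 3.62-fold fall (SE 0.11, adjusted p = 7.3e-07). Of 18 Paneth cell and antimicrobial genes 6 were higher and 4 lower. LYZ, lysozyme, had the largest rise after TLR4, at 11.81, 11.83 and 11.95 against 9.09, 9.25 and 9.08 (difference 2.72, SE 0.07, adjusted p = 1.07e-08). The groups of LYZ were separate. SLPI, a secreted inhibitor of neutrophil elastase, was at 8.44, 8.29 and 8.70 against 9.98 to 10.07 in the untransfected arrays and fell by 1.54. PLA2G2A, a phospholipase that kills Gram-positive bacteria, fell by 1.75 (SE 0.09, adjusted p = 2.82e-07). REG1A, a lectin-like protein of regenerating mucosa, rose by 1.28 (SE 0.13, adjusted p = 3.63e-05). In antigen presentation 7 of 14 processing and loading genes were lower and 2 higher, among them TAPBP (tapasin), which fell by 0.62, and the immunoproteasome subunit PSMB8, which fell by 0.45.

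Of 19 genes of prostaglandin synthesis and receptors 6 were higher and 3 lower. HPGD, which inactivates prostaglandin E2, was at 7.70, 7.71 and 7.77 against 9.60, 9.55 and 9.47, a 3.52-fold fall (SE 0.11, adjusted p = 6.99e-07). PTGER2, a receptor for prostaglandin E2 that raises cyclic AMP, was at 6.74, 6.66 and 6.77 against 5.64, 5.64 and 5.51, a rise of 1.13 (SE 0.08, adjusted p = 3.2e-06). The groups were separate in both. PTGS2, the inducible cyclooxygenase, was at 5.73, 5.81 and 5.52 against 5.06, 5.12 and 5.61. It was called higher (difference 0.42, SE 0.14, adjusted p = 0.0411), although the groups overlapped and 2 of the 3 untransfected arrays were below the lower quartile. PDE3A, which breaks down cyclic AMP, was at 8.66, 8.65 and 8.52 against 6.91, 6.68 and 6.30, a 3.95-fold rise (SE 0.18, adjusted p = 1.84e-05). PRKACA, a catalytic subunit of protein kinase A, fell by 0.68.

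Genes of cell contacts changed in both directions. GJA1, connexin 43, was at 7.01, 7.12 and 7.13 against 5.52, 5.38 and 6.02, a rise of 1.45 (SE 0.15, adjusted p = 4.42e-05). CEACAM1, an adhesion molecule that also receives bacteria, was at 8.72, 8.58 and 8.84 against 7.16, 7.21 and 7.10, a rise of 1.56 (SE 0.08, adjusted p = 3.27e-07). The integrin chains ITGA2 and ITGA6, which bind collagen and laminin, rose by 0.98 and 0.78, and the basement membrane protein NID1 fell by 1.11. Among 22 adhesion genes outside the cadherins and desmosomes 8 were higher and 7 lower.

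Several surface proteins were among the largest falls. HEPACAM2, an immunoglobulin-family protein of goblet and tuft cells, was at 6.13, 6.15 and 6.07 against 9.80, 9.79 and 9.53, a 12-fold fall (log2 -3.59, SE 0.12, adjusted p = 2.14e-08). CPM, a membrane carboxypeptidase, was at 6.19, 5.98 and 6.08 against 8.87, 8.60 and 8.62, a 6.12-fold fall. GPC5, a heparan sulfate proteoglycan, was at 6.41, 6.03 and 6.15 against 8.74, 8.98 and 8.58, a 5.94-fold fall. TSPAN7 and TM4SF4, proteins with 4 membrane spans, were 5.12-fold and 4.45-fold lower. All 5 had separate groups. Among rises without a list, SAMD5 was at 8.68, 8.57 and 8.62 against 6.56, 6.57 and 6.78, a 3.96-fold difference, and RUBCNL, a regulator of autophagosome maturation, was at 7.18, 7.23 and 7.21 against 5.46, 5.07 and 5.18.

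Of 13 measured ligand genes of the TGF-beta family 2 were higher and 2 lower. The largest change among them was that of TGFB2, which was at 5.96, 5.63 and 5.72 against 7.53, 7.50 and 7.64, a 3.45-fold fall (adjusted p = 6.42e-07). ID1, a target of bone morphogenetic proteins, was at 9.42, 9.64 and 9.66 against 8.20, 8.12 and 8.25, a 2.61-fold rise (adjusted p = 3.69e-07). Over both roles of the list 8 of 34 were higher and 8 lower (23.5% each), near the shares of all genes (19.3% and 19.0%).

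Genes of the endoplasmic reticulum and of lysosomes were lower in larger number than higher. Of 24 chaperones and degradation genes of the endoplasmic reticulum 16 were lower and 3 higher, with a median difference of -0.24. SEL1L, which retrieves misfolded proteins for degradation, was at 9.63, 9.73 and 9.58 against 10.81, 10.84 and 10.78 and fell by 1.16 (SE 0.06, adjusted p = 4.6e-07). DNAJC3, an inhibitor of the stress kinase PERK, fell by 1.15 and the chaperone HSPA5 fell by 0.43. PPP1R15A, which ends the translational arrest of stressed cells, rose by 0.89 (SE 0.08, adjusted p = 1.56e-05). Of 22 lysosome and autophagy genes 11 were lower and 4 higher (1 after centring), and their regulator MITF fell by 1.04.

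Of 27 S phase genes 10 were higher, 2 lower and 15 not called, with a median difference of 0.06, near that of all genes. The largest rise among them was that of MCM7, a helicase subunit, which was at 11.22, 11.27 and 11.31 against 10.55, 10.65 and 10.60 and rose by 0.67 (SE 0.06, adjusted p = 1.76e-05). Mitosis genes were split, 6 higher and 5 lower of 27. Of 20 glycolysis genes 10 were higher and 2 lower. PFKP, a phosphofructokinase, was at 9.03, 9.11 and 8.92 against 8.05, 8.23 and 8.11 and rose by 0.89 (SE 0.07, adjusted p = 6.56e-06), and PFKFB3, which makes its activator, rose by 0.67. CYC1, cytochrome c1 of the respiratory chain, rose by 0.83, the largest of 7 higher members of 23 respiratory genes, and 2 were higher after centring.

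Neighbouring genes moved together in some regions, as a description without a test. Median differences per chromosome ran from -0.06 (chromosome 13) to 0.20 (chromosome 19). On chromosome 19, 33.5% of genes were higher and 9.2% lower; on chromosome 13, 7.6% were higher and 32.5% lower. Over all runs of 25 neighbouring genes in RefSeq order the median of the run medians was 0.05, and their 1st and 99th percentiles were -0.34 and 0.32. The lowest run, from SLC30A10 to TP53BP2 on chromosome 1, had a median of -0.58 with 15 genes lower and 2 higher. SLC30A10, a manganese exporter at its edge, fell by 1.96. A second run on chromosome 1, from KCNH1 to PROX1, had a median of -0.50 with 15 lower. PROX1, a homeodomain factor of liver progenitors, fell by 0.97. Against the TLR4-D299G and TLR4-T399I lines the lowest run had medians of -0.21 and -0.29 and the second lowest -0.15 and -0.24. The highest run, from HBQ1 to JMJD8 on chromosome 16, had a median of 0.38, with 18 genes higher and none lower. Against the TLR4-D299G line the same run had a median of 0.03 and against TLR4-T399I 0.09.

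The wild-type line was called higher than each of the 3 other groups in 244 genes and lower in 513, and the 6 in each direction with the largest smallest difference are described here. These comparisons share the TLR4-WT arrays. Over all genes, 23.1% were called between the TLR4-WT and TLR4-D299G lines and 14.4% between the TLR4-WT and TLR4-T399I lines. The rule for the genes below asked for calls of the same sign against untransfected cells and both mutant lines, so the shared sign is how they were chosen. CHI3L1, a chitinase-like protein of inflamed epithelium, was at 5.98, 6.22 and 6.16 in the TLR4-WT arrays and at 7.67, 7.77 and 7.67 in untransfected arrays. It averaged 9.45 in the TLR4-D299G arrays and 10.04 in the TLR4-T399I arrays, so the wild-type line was the lowest of the 4 groups. BAMBI, a decoy receptor that dampens TGF-beta signals, was at 8.75, 8.67 and 8.60 against 10.31, 10.29 and 10.17 and averaged 10.51 and 10.89 in the mutant lines.

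TF, transferrin, was at 6.07, 5.44 and 6.10 against 7.36, 7.54 and 7.44, and CFI, the complement factor that cleaves C3b, at 6.53, 6.75 and 6.45 against 8.60, 8.58 and 8.40. ITPR2, a calcium channel of the endoplasmic reticulum, fell by 2.36 and EXPH5, a Rab27 effector whose TLR4-WT arrays were below the lower quartile, fell by 1.67 or more. AASS, the first enzyme of lysine breakdown, was at 9.65, 9.88 and 9.62 against 8.36, 8.41 and 8.32 and was highest in the wild-type line. GDPD2, a glycerophosphodiester phosphodiesterase, was at 8.85, 8.75 and 8.78 against 7.55, 7.49 and 7.14. SULT1E1, the estrogen sulfotransferase, rose by 1.46, while 3 of the 7 measured sulfotransferases fell. SULT1C4 among them had the largest fall of all genes, at 4.33, 4.71 and 4.62, below the lower quartile, against 8.93, 9.10 and 8.89, at least 21.4-fold (adjusted p = 1.97e-08). CEACAM6, a receptor for adherent Escherichia coli, was at 9.35, 9.31 and 9.32 against 8.10, 8.49 and 7.62, with the untransfected arrays more spread than those of the TLR4-WT line. CP rose by 2.02, and RPL22L1, a paralog of a ribosomal protein, rose by 0.87.

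**Figure D4:**
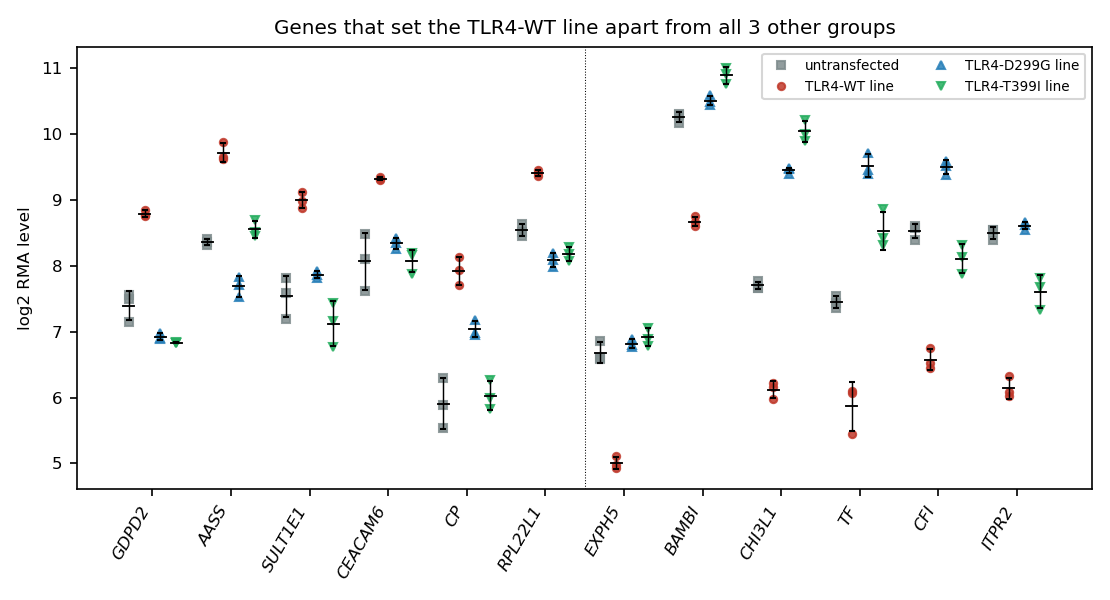
Log2 RMA levels (vertical) of 12 genes called with the same sign between the TLR4-WT line and each of the other 3 groups, which is how they were chosen; each symbol is an array, black bars give mean and SD of 3 arrays. The TLR4-WT arrays (red circles) lie above the others in the 6 genes on the left and below them in the 6 on the right, such as CHI3L1 at 5.98 to 6.22.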

How the data were processed

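RNA of 4 groups of Caco-2 lines, 3 samples each, was measured on Affymetrix arrays. The values used are the deposited log2 RMA values of 33297 probe sets, made with Affymetrix Expression Console 1.0 per the submitters' processing notes; RMA subtracts background, equalises the distributions of the arrays and summarises probes, which removes a shift common to all genes. No values below the probe set level were used. A group-means model over all 12 arrays was fitted with limma 3.58.1 in R 4.3.3, with empirical Bayes moderation, two-sided tests and Benjamini-Hochberg adjustment, and the procedure was tested on simulated data. The number of arrays limits the precision. Symbols came from the platform annotation: 19460 probe sets had 1 symbol, 1754 several and 12083 none, and only those with 1 were named. Of these, 19433 matched RefSeq; promoters and miRNA sequences are from RefSeq GRCh38.p14, and the build of the array design is not given in the sources used here.

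Genes were named from a set of 340 fixed by rule, not all of which are described: TLR4, LY96 and CD14, the 15 largest rises and falls without overlap, up to 4 called members per role of each list, and the 6 in each direction that differed from all 3 other groups, without small RNAs and unnamed loci. Other genes named were chosen after their values were seen. Members and lists were chosen with earlier results of these data known. Replicate numbers were not used as pairs in the main fit, because nothing in the labels ties a number to a shared culture. Deviations of same-numbered TLR4-WT and untransfected samples from their group means correlated at 0.088, 0.146 and 0.161. These values do not settle whether the numbers mark paired samples. Alternatives were the 6 arrays alone, centring, quantile normalisation, brighter probe sets, a trended robust prior, array weights, a replicate block, leaving out each replicate and averaging probe sets.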

Additional observations from a re-analysis of the deposited data

Results flagged for a closer look

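In 244 genes the TLR4-WT line was called higher, and in 513 lower, than untransfected cells and both mutant lines alike. The 6 in each direction with the largest smallest difference are given. The differences from the mutant lines below were tested as contrasts in limma with Benjamini-Hochberg adjustment, and all share the TLR4-WT arrays. The genes were chosen by their calls and differences in these same contrasts, so adjusted p-values under 0.05 follow from the choice.

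Among the genes highest in the wild-type line, GDPD2 exceeded the TLR4-D299G line by 1.87 (adjusted p = 3.76e-07) and the TLR4-T399I line by 1.96 (adjusted p = 9.52e-07). AASS exceeded them by 2.03 (adjusted p = 3.13e-07) and 1.16 (adjusted p = 4.89e-05), and RPL22L1 by 1.32 (adjusted p = 1.24e-06) and 1.23 (adjusted p = 7.3e-06). SULT1E1 exceeded them by 1.13 (adjusted p = 0.000973) and 1.87 (adjusted p = 8.52e-05), CEACAM6 by 0.99 (adjusted p = 0.00224) and 1.25 (adjusted p = 0.00115), and CP, the copper-carrying ceruloplasmin, by 0.89 (adjusted p = 0.00639) and 1.89 (adjusted p = 0.00012).

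Among the genes lowest in the wild-type line, CHI3L1 differed from the TLR4-D299G line by -3.33 (adjusted p = 5.19e-09) and from the TLR4-T399I line by -3.92 (adjusted p = 5.3e-09). TF differed by -3.65 (adjusted p = 3.72e-07) and -2.66 (adjusted p = 1.13e-05), and CFI by -2.92 (adjusted p = 6.89e-08) and -1.53 (adjusted p = 2.44e-05). BAMBI differed by -1.84 (adjusted p = 1.22e-07) and -2.22 (adjusted p = 1.06e-07), ITPR2 by -2.47 (adjusted p = 3e-07) and -1.47 (adjusted p = 3.72e-05), and EXPH5 by -1.81 (adjusted p = 5.16e-07) and -1.91 (adjusted p = 1.27e-06).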

How the results depend on the processing

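The TLR4 difference kept its direction and call under the alternatives fitted, and the counts of called probe sets stayed within 1.5 times, with one exception: 341 probe sets were at least 2-fold lower among the brighter ones alone, against 515 among all, since that setting tests fewer probe sets. Leaving out 1 array gave 3592 to 5639 higher and 3965 to 5331 lower probe sets. The share of higher among called probe sets was 51.6%, but 39.5% after centring, 49.6% with the 6 arrays alone, and 47.5% to 51.4% with 1 array left out (below 50% without any 1 TLR4-WT array or without untransfected replicate 2). With the replicate block 11019 probe sets were called against 10404 without it. The SE of the TLR4 difference was then 0.088 against 0.118. The labels do not say whether the numbers pair the samples. Of 339 genes named by rule besides TLR4, 317 were called in every setting that could be fitted, 20 lost the call in at least 1 setting, 2 (LY96 and CD14) were not called, and none of those fitted reversed. With the brighter probe sets alone, 284 of them could be fitted. Centring lowered the differences by about 0.06 and turned the sign of the median in 8 of 53 lists, and brighter probe sets alone turned it in 10; the cause was not tested. Values near the floor of the arrays limit what can be said of dim genes. With 1 line per construct, no empty-vector line and RNA samples of unstated origin, p-values speak of these samples only.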

Other observations

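Small RNA genes were not named by rank, and the values below were picked after they were seen. The precursor probe sets of MIR215 and MIR194-1, microRNAs known from differentiated enterocytes, lie in the lowest run of chromosome 1 and differed by -0.92 and -0.95 between the TLR4-WT line and untransfected cells. A run of 25 neighbours on chromosome 15 from MKRN3 to SNORD116-29, most of them near-identical copies of imprinted small nucleolar RNAs whose probe sets may share signal, had a median difference of -0.43, with 14 lower and 1 higher. Against the TLR4-D299G and TLR4-T399I lines the same run had medians of -0.47 and -0.38; these comparisons share the TLR4-WT arrays. On chromosome 19, a run from ZNF350 to ZNF816 in a cluster of zinc finger genes had a median of -0.46, with 14 lower and none higher.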
